A study of Mus musculus with 2 samples.

Results

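The hemoglobin-rich spots of the TOP2B transgenic heart section numbered 92 of 921 compared spots. They were chosen by a measured value, the share of a spot's unique molecular identifiers (UMIs) that came from genes whose symbol starts with Hba- or Hbb-. Spots over tissue with at least 1000 UMIs were ranked by this share, and the highest 10% were taken, with ties broken by barcode order. The remaining 829 spots served as the comparison. Because the hemoglobin genes chose the spots, their difference between the groups is a description and not a finding, and no test was run on it or on any other gene, since the spots came from 1 section and are not replicates.

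Gene expression was measured with the Visium CytAssist assay, in which gene probes hybridized to a formalin-fixed, paraffin-embedded section are captured on a grid of barcoded spots. A spot covers a small region that can hold several cells of different types or parts of them. The study asked how overexpression of TOP2B, a DNA topoisomerase targeted by anthracyclines, affects heart muscle. It deposited 1 section of 5 μm from each of 2 mice. The transgenic mouse carried α-MHC-MerCreMer+/- together with hTOP2B LSL/-, in which human TOP2B cDNA lies behind a loxP-flanked stop cassette under a CAG promoter at Rosa26. The control mouse carried the same heterozygous α-MHC-MerCreMer, a tamoxifen-activated Cre recombinase driven by the cardiomyocyte α-MHC promoter, and no TOP2B allele. Both received a single intraperitoneal dose of tamoxifen at 80 mg/kg. Mice of this single-dose model were injected at an age of 6 weeks. Non-cardiomyocyte genes in this model are therefore read in cells that the Cre driver is not designed to reach, and genotype, animal and section cannot be told apart.

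Mature red cells of adult mice have no nucleus and make no new RNA, but reticulocytes, the young red cells that still circulate, carry leftover transcripts of globin, of heme synthesis and of the red cell membrane. Blood inside a tissue section also brings platelets, which hold megakaryocyte RNA, and leukocytes. Plasma proteins such as albumin and fibrinogen are made chiefly in the liver, so that their transcripts are not expected to travel with blood.

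The hemoglobin share of the 92 spots ranged from 2.58% to 88.1% with a median of 23.9%, and that of the 829 remaining spots from 0.0561% to 2.55% with a median of 0.544%. The 3 lowest members stood at 2.64%, 2.60% and 2.58%, and the 3 highest remaining spots at 2.55%, 2.52% and 2.51%, so the lower bound of the group is a cut through a continuous range. A wide gap did appear higher up, where no spot lay between 39.4% and 52.2%. It separated 39 blood-dominated spots, in which hemoglobin genes gave 50% or more of the UMIs, from 53 spots under 50%, which are mixed with tissue RNA. The median share was 79.5% in the first set and 4.42% in the second. Values for these 2 sets are given beside those over all members for many of the lists and genes, and the split was made after the shares were seen.

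Depth differed between the sets. The 39 blood-dominated spots had a median of 4322 UMIs, of which 764 were not hemoglobin, whereas the 53 mixed spots had 11812 and 10823 and the remaining spots 14823 and 14755. In sum, the 92 spots held 785893 UMIs, of which 178575 or 22.7% were hemoglobin (95% binomial interval by Clopper-Pearson 22.6% to 22.8%, counting error only), and the remaining spots held 12166737, of which 0.674% were hemoglobin. The 92 spots carried 68.4% of all hemoglobin UMIs over the section. Levels of other genes are therefore given as counts per 1000000 non-hemoglobin UMIs (CPM), so that the abundance of globin does not by itself lower every other gene. Ratios are log2 of the CPM in the 92 spots over that in the remaining spots, with exact 95% intervals from the binomial distribution that cover counting error only. The blood-dominated spots held 39409 non-hemoglobin UMIs in sum, so that 1 UMI there is 25.4 CPM. A gene with few UMIs in the remaining spots is thus past 1.5-fold higher there on 1 UMI and lower on 0. Counts of genes higher or lower in that set are therefore coarse.

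**Figure D1:**
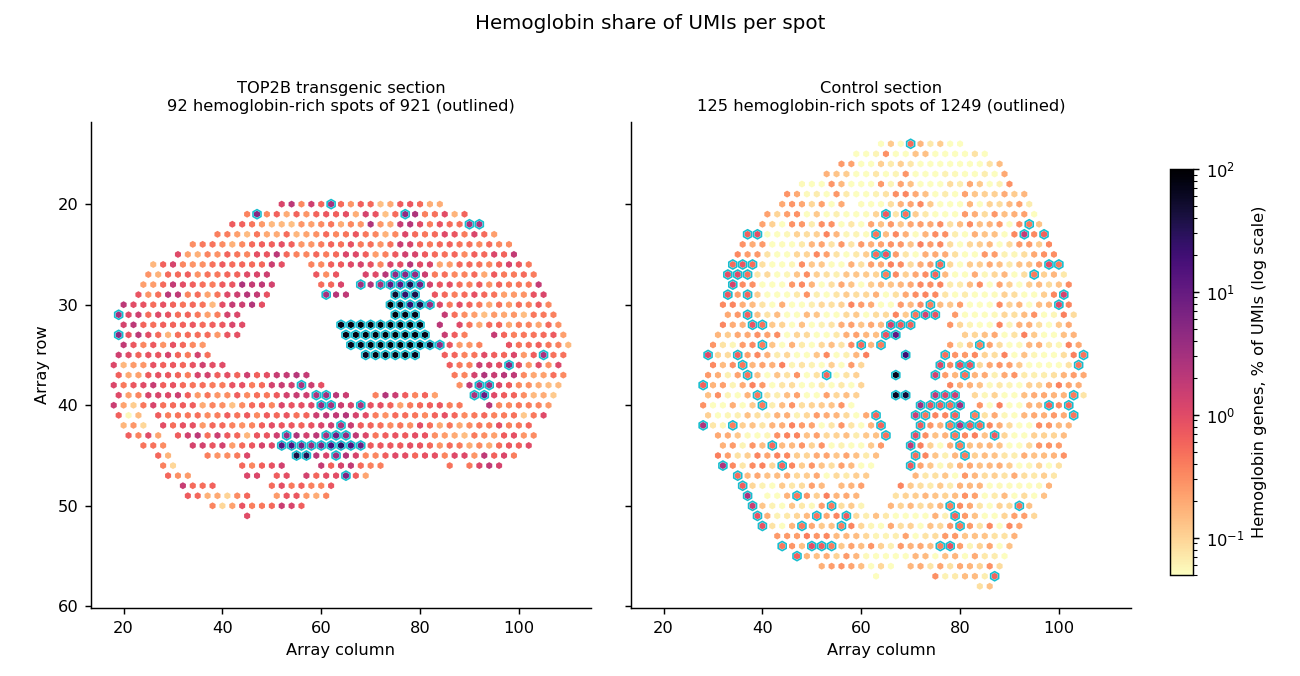
Hemoglobin share of each spot's UMIs in percent (colour, log scale) by array column and array row, in the transgenic section (left) and the control section (right). Spots chosen by the rule are outlined, 92 of 921 and 125 of 1249. In the transgenic section 53 of them form 1 dark block beside the central opening of the spot map.

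The hemoglobin-rich spots lay close together. They formed 17 groups of touching spots, and 68.4% of the neighbors of a member were members, against 3.16% of the neighbors of a remaining spot. The largest group had 53 spots in array rows 27 to 35 and columns 64 to 84, bordering the central opening of the spot map, and it held all 39 blood-dominated spots. The second group had 17 spots in the bottom left quadrant, with shares up to 39.4%, and 12 members stood alone. Of the 92 spots, 51.1% lay at an edge, meaning that fewer than 6 neighbors were over tissue, compared with 31.5% of the remaining spots. The top right quadrant held 51 members, the bottom right 19, the bottom left 17 and the top left 5. The image of the section was not used here, so whether the block is a chamber, a vessel or blood outside vessels was not examined.

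The control section held less hemoglobin under the same rule. The 10% of its spots with the highest share, 125 of 1249 spots, had 0.979% hemoglobin in sum, and its remaining spots 0.134%. Only 7 control spots reached the 2.58% of the lowest transgenic member, all of them at an edge, and 2 reached 50%. At 1% or more stood 261 transgenic and 26 control spots. The control members were also scattered, in 54 groups of which the largest had 24 spots. Over all compared spots hemoglobin genes gave 2.01% of UMIs in the transgenic and 0.200% in the control section. A single section per genotype does not show whether this differs between genotypes. The 2 sections share 725 spot barcodes, which mark array positions and not cells.

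The label was checked against red cell markers that the rule did not use. Alas2 encodes the erythroid enzyme that starts heme synthesis, and Slc4a1 encodes band 3, the anion exchanger of the red cell membrane. Alas2 was counted in 92 of 92 members and in 542 of 829 remaining spots. Per 10000 non-hemoglobin UMIs of a spot it ran from 126 through a median of 360 to 890 in the blood-dominated spots, from 0.884 through 5.31 to 96.5 in the mixed spots, and from 0 through 0.671 to 6.89 in the remaining spots. The blood-dominated spots thus did not overlap the remaining ones, the mixed spots did, and 62 of the 92 members stood above every remaining spot. Slc4a1 ran from 2.20 through 50.8 to 134 in the blood-dominated spots, from 0 through 0.706 to 21.0 in the mixed spots and from 0 through 0 to 2.11 in the remaining ones. It was counted in 70 members and in 132 remaining spots. Both markers therefore went with the hemoglobin share. When each spot was thinned to 8715 UMIs, which left 44 members and 785 remaining spots, Alas2 was counted in 97.7% and 50.4% of them and Slc4a1 in 52.3% and 9.43%. Of these 44 members 42 were mixed spots. Thinned instead to 596 non-hemoglobin UMIs, which kept 83 members, 30 of them blood-dominated, and all 829 remaining spots, Alas2 was counted in 74.7% and 4.58%.

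Adult globin accounted for nearly all of the hemoglobin signal. Of the 7 globin genes on the panel, Hba-a2, the adult alpha chain, had 139113 UMIs in the members, and the adult beta chains Hbb-bs and Hbb-bt had 26923 and 12538. The embryonic chains were close to 0: the members held 1 UMI of Hbb-y and none of Hbb-bh1, Hbb-bh2 or Hba-x, although the remaining spots held 6, 12 and 12 UMIs of the last 3. With 178575 hemoglobin UMIs, a count of 0 allows up to 0.0168 per 1000 hemoglobin UMIs. Hbb-bt made up 31.7% of adult beta UMIs in the blood-dominated spots, 31.9% in the mixed spots and 32.1% in the remaining spots, with overlapping intervals, whereas the control section had 28.0% in its hemoglobin-rich spots and 27.8% elsewhere. Hba-a2 gave 79.1% of adult globin UMIs in the blood-dominated spots, 74.8% in the mixed spots and 74.9% in the remaining ones, and 79.0% and 77.6% in the control. These are shares of probe counts and not of protein or of transcripts per length.

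The 250 bases before the transcription start are shown for Alas2 and the 3 adult globin genes, as listed by RefSeq for GRCm38.p6. The globin genes chose the spots, so that they moved together follows from the rule. The deposited counts were made on GRCm39, and the coordinates below belong to GRCm38.p6 alone. Capitals mark GATAA, the core bound by GATA factors, CACCC, the core bound by KLF factors, and CCAAT on either strand, so that a site on the opposite strand appears as its reverse complement. Sequences are written 5′ to 3′ on the strand of the gene. They lie at chrX:150547167-150547416 on the plus strand, chr11:32296242-32296491 on the plus strand, chr7:103827929-103828178 on the minus strand and chr7:103813924-103814173 on the minus strand, in the order shown.
Alas2: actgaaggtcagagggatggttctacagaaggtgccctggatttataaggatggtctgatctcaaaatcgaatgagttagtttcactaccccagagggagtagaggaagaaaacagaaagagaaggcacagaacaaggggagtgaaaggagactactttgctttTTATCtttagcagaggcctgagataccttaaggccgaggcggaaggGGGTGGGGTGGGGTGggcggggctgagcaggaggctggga
Hba-a2: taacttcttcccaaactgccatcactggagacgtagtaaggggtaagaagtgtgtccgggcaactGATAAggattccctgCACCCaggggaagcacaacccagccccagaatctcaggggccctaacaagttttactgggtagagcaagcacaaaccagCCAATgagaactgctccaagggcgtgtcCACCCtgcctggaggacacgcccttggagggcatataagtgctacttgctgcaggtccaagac
Hbb-bs: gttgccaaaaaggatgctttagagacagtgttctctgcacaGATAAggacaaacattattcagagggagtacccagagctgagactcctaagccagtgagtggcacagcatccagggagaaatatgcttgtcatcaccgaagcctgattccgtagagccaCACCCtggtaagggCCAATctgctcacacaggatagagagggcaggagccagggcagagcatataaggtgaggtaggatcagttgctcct
Hbb-bt: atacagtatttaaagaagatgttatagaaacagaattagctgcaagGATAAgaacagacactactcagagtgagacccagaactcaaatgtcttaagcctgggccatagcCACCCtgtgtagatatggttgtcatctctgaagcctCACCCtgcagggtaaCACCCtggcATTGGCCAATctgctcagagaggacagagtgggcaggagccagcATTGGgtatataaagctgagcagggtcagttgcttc
Each of these 4 windows held 1 GATAA and at least 1 CACCC. Among the other genes looked up, Gda, at least 1 window each of Isg20 and Prxl2a, and the embryonic globins Hbb-y and Hba-x, which were at or near 0 in the members, also held both. No window of Tent5c, Bpgm, Epb41, Ube2l6 or Rsad2 held GATAA, and none of Tent5c, Bpgm, Epb41 or Rsad2 held CACCC. In the windows shown, CACCC occurred 3 times in Alas2, 2 times in Hba-a2, 1 time in Hbb-bs and 3 times in Hbb-bt, and CCAAT 0, 1, 1 and 3 times. Among 32851 RefSeq promoter windows of this length, from which 1 chromosome was left out, 22.6% held GATAA, 52.0% held CACCC, 33.8% held CCAAT and 10.1% held both GATAA and CACCC. A match of letters is a description and does not show that a factor binds there. Of 22 genes looked up, 15 had a window in the RefSeq table.

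Of 9399 genes with at least 100 UMIs, 582 or 6.19% were at least 1.5-fold higher in the hemoglobin-rich spots and 768 or 8.17% at least 1.5-fold lower, with a median log2 ratio of -0.02 over all of them. The 15 genes with the highest ratio, among those with at least 200 UMIs, were mainly transcripts known from maturing red cells, and 11 of the 15 were on the red cell lists. At the top stood Tent5c, a poly(A) polymerase, with 767 UMIs in the members and 400 in the remaining spots (log2 ratio 5.25, interval 5.08 to 5.43). Alas2 had 2028 and 1103 UMIs (5.19, 5.09 to 5.30). The 92 spots thus held more UMIs of both genes than the 829 others together. Slc4a1 reached 4.96 (4.66 to 5.26). Bpgm, which makes the bisphosphoglycerate that loosens oxygen from hemoglobin, reached 4.63, and Slc25a37, the mitochondrial iron importer mitoferrin 1, reached 4.54. Car2, the red cell carbonic anhydrase, reached 4.49, and Epb41, which ties the membrane to its skeleton, 3.86. Isg20, an RNA exonuclease, and Ube2o, a ubiquitin enzyme that clears proteins during reticulocyte maturation, reached 4.68 and 3.41.

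Of these 15 genes, 4 were on no red cell list. They were Gda, guanine deaminase, at 4.06 (3.74 to 4.38), Rsad2, the interferon-induced antiviral protein viperin, at 3.61 (3.30 to 3.92), Ube2l6, the conjugating enzyme for the ubiquitin-like ISG15, at 3.54 (3.42 to 3.65), and Prxl2a, a peroxiredoxin-like protein, at 3.53 (3.32 to 3.74). Ube2l6 was counted in 91 of 92 members, and in all 39 blood-dominated spots it lay above the highest remaining spot, at 39.3 or more against at most 6.42 per 10000. Of 14 interferon response genes with at least 100 UMIs, Rsad2 alone was at least 1.5-fold higher over all members and 1 was lower. Over all genes these shares were 6.19% and 8.17%. In the blood-dominated spots 6 of the 14 were higher and 6 lower, against 17.9% and 56.8% of all genes, and the summed list stood at 2.53 (2.27 to 2.79) there. Rsad2 gave 93 of its 123 UMIs in those spots, and without it the list stood at 0.55 (-0.02 to 1.07) there, 0.02 (-0.15 to 0.19) in the mixed spots and 0.06 (-0.10 to 0.22) over all members. Further down, and named after their values were seen, stood Gpx1, a glutathione peroxidase that detoxifies peroxide, at 3.02 (2.93 to 3.12), Ucp2, a mitochondrial carrier, at 1.96, Cd24a, a surface protein of erythroid and other blood cells, at 1.95, and Ncoa4, the receptor that takes ferritin to the lysosome, at 1.93.

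At the other end, the 10 lowest genes had 1 to 4 UMIs in the members, from Bend4 at -3.34 (-8.65 to -0.85, 1 UMI against 202) to Lrtm1, a membrane protein gene of muscle, at -1.66 (-3.55 to -0.29, 4 against 252). The ranking among them is therefore imprecise.

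**Figure D2:**
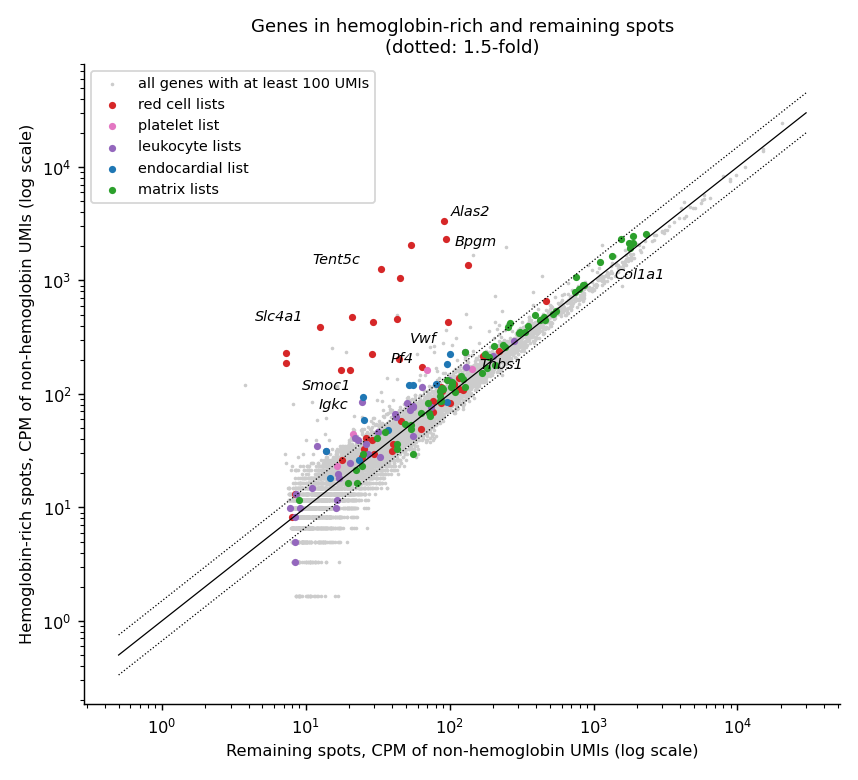
Each gene with at least 100 UMIs by its CPM of non-hemoglobin UMIs in the remaining spots (x axis, log scale) and in the 92 hemoglobin-rich spots (y axis, log scale), with 4 genes at 0 in the members not drawn. The solid line marks equal levels and the dotted lines 1.5-fold, and colours mark gene lists. Red cell genes such as Alas2 and Tent5c lie far above the diagonal while Col1a1 and other matrix genes stay near it.

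The red cell lists described 3 roles. Of 18 erythroid regulators and maturation genes tested, 12 were higher and none lower, and their summed UMIs gave 2.96 (2.92 to 3.0). Mkrn1, a ubiquitin ligase, stood at 3.35, Bnip3l, which clears mitochondria from reticulocytes, at 3.0, and Blvrb, biliverdin reductase B, at 2.18, while the most abundant member Prdx2, a peroxiredoxin also made in other cells, stood at 0.51 (0.36 to 0.66). Of 13 heme synthesis genes, 3 were higher, namely Alas2, Slc25a37 and Fech, the ferrochelatase that inserts iron, at 2.16 (1.96 to 2.35), and Cpox, which acts earlier in the pathway, stood at -0.36 (-0.94 to 0.17). Of 12 red cell membrane genes, 5 were higher, whereas the most abundant member Tmod1, a tropomodulin that cardiomyocytes also make, stood at 0.11 (-0.14 to 0.35). Together 20 of 43 red cell genes were higher and none was lower, against 6.19% of all genes. Members outside the naming rule, such as Mkrn1 and Fech, were named after their values were seen, here and in the lists that follow.

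Within the group, these genes followed the hemoglobin share. The log2 ratio of Alas2 to the remaining spots was 8.59 in the blood-dominated spots and 3.63 in the mixed spots, and that of Slc4a1 8.45 and 3.16. Below the members the levels also climbed, for Slc4a1 not steadily. When the compared spots were put in 10 bins by hemoglobin share, Alas2 was at 29.8 CPM in the lowest bin, 80.2 in the fifth, 245 in the ninth and 3339 in the tenth, which is the members. Slc4a1 was at 4.26, 12.9, 36.7 and 390 CPM, with 10.7 and 10.6 in the sixth and the seventh. Since the bins were ordered by hemoglobin, a rise of other red cell genes along them is a description. By distance, the 102 spots touching a member had 148 CPM of Alas2, those at 2 steps 89.3, those at 3 to 5 steps 75.4, and those at 6 or more steps 89.5. The level was highest beside the members and lay between 75.4 and 89.5 CPM from 2 steps on.

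**Figure D3:**
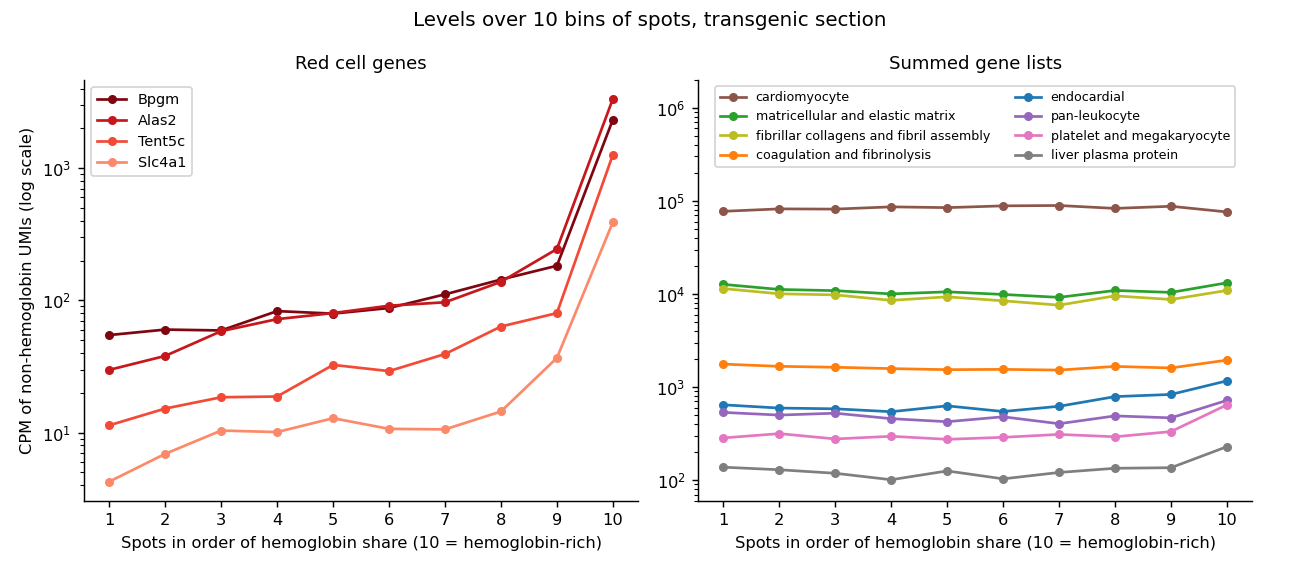
CPM of non-hemoglobin UMIs (log scale) over 10 bins of transgenic spots ordered by hemoglobin share, where bin 10 is the 92 hemoglobin-rich spots. Red cell genes (left) are higher in bins 9 and 10 than in bin 1, Alas2 from 29.8 to 3339 CPM. Summed gene lists (right) are not level before bin 10 but vary less than Alas2 over bins 1 to 9.

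Per 1000 hemoglobin UMIs, Alas2 and Tent5c varied less between the sets of spots than Slc4a1 and Epb41 did. Alas2 stood at 10.8 UMIs in the blood-dominated, 12.8 in the mixed and 13.4 in the remaining transgenic spots, and at 11.8 and 14.2 in the control members and remaining control spots. Its interval in the blood-dominated spots, 10.2 to 11.4, lay below those of the remaining transgenic spots, 12.7 to 14.3, and the remaining control spots, 12.5 to 16.1. Tent5c stood at 4.15, 4.66, 4.87, 3.07 and 3.89 in the same order. Slc4a1 stood at 1.35, 1.27 and 1.85 in the transgenic section but at 0.181 and 0.621 in the control, on 2 and 11 UMIs. The interval of Slc4a1 in the remaining control spots, 0.310 to 1.11, lay below those of the blood-dominated and the remaining transgenic spots and overlapped that of the mixed spots, 0.981 to 1.63, and each section is 1 animal. Epb41, which is not particular to red cells, varied most of the 4, with 1.33 in the blood-dominated spots, 4.35 in the remaining transgenic spots and 22.2 in the remaining control spots.

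**Figure D4:**
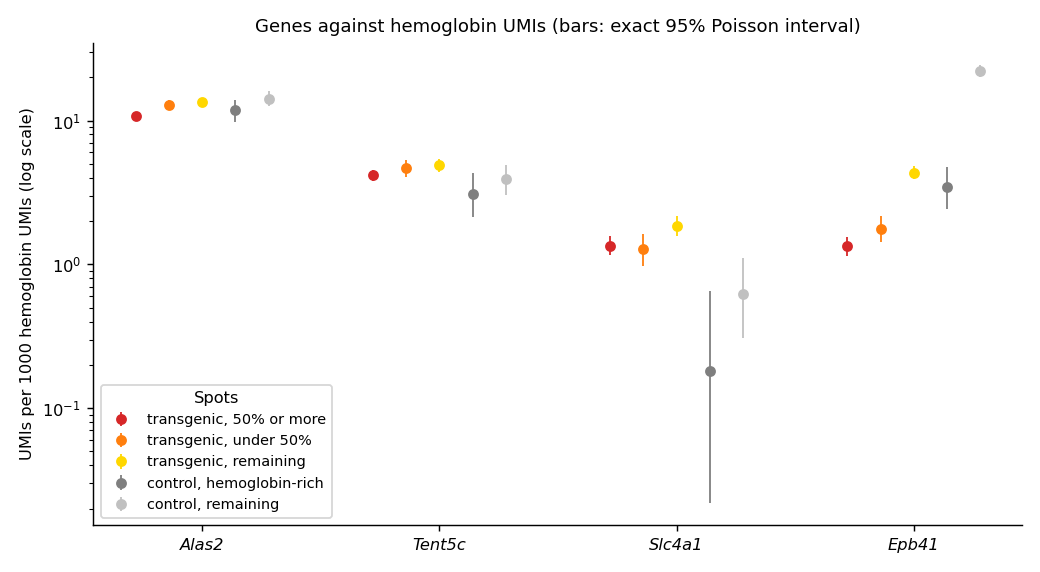
UMIs per 1000 hemoglobin UMIs (log scale) of Alas2, Tent5c, Slc4a1 and Epb41 in the 3 sets of transgenic spots and the 2 sets of control spots, with exact 95% Poisson intervals. Alas2 runs from 10.8 to 14.2 and Tent5c from 3.07 to 4.87 over the 5 sets, Slc4a1 is lower in the control, on 2 and 11 UMIs, and Epb41 spans from 1.33 in the blood-dominated spots to 22.2 in the remaining control spots.

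Platelet genes went with blood at low counts. The platelet and megakaryocyte list of 23 genes had 391 UMIs in the members and 3581 in the remaining spots, a log2 ratio of 1.12 (0.97 to 1.27). It was 3.24 (2.95 to 3.51) in the blood-dominated spots, 0.74 (0.56 to 0.92) in the mixed spots, and 0.40 (0.24 to 0.56) in the control under the same rule. The list's most abundant gene was Stom, stomatin, which many tissues make, at 0.22 (-0.08 to 0.51), and without it the list stood at 1.63. Only 4 of its genes passed 100 UMIs, of which 2 were higher and none lower, against 6.19% and 8.17% of all genes. The 2 higher were Pf4, platelet factor 4, with 99 UMIs against 843 (1.22, 0.91 to 1.53), and Fermt3, which activates integrins in platelets and leukocytes, at 1.07 (0.44 to 1.64). At 20 UMIs or more, 14 of 17 platelet genes were higher, against 11.7% of all genes at that count and 13.3% lower. Named after their values were seen, Ppbp, the platelet basic protein, had 20 UMIs in 17 members and 31 in 28 remaining spots (3.68, 2.79 to 4.54), and Gp9, a subunit of the von Willebrand factor receptor, 16 and 26 (3.61, 2.62 to 4.57). Nrgn, neurogranin, which platelets also hold, had 24 and 31 (3.95, 3.11 to 4.76). These signals lay mainly in the block of 53 spots: among the 39 members outside it the list stood at 0.39, and neither Pf4 nor Fermt3 was 1.5-fold higher.

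Leukocyte genes were moderately higher. Of 36 leukocyte genes tested, 10 were higher and 3 lower, against 6.19% and 8.17% of all genes, and the summed lists gave 0.47 (0.40 to 0.55). All 11 pan-leukocyte genes with enough UMIs were higher in the blood-dominated spots, where 17.9% of genes were higher and 56.8% lower, and the summed list stood at 2.16 (1.83 to 2.47) there, at 0.38 (0.23 to 0.54) in the mixed spots and at 0.26 (0.10 to 0.42) in the control. Over all members it was 0.60 (0.45 to 0.74), with Coro1a, which organizes actin in leukocytes, at 1.17 (0.40 to 1.86) and Ptprc, the leukocyte antigen CD45, at 0.91 (0.26 to 1.51). Laptm5, its most abundant gene, stood at 0.41 (0.06 to 0.74). Of 35 leukocyte genes, 20 were higher and 9 lower in the blood-dominated spots. In the mixed spots 7 were higher and 4 lower, against 6.1% and 8.22% of all genes. Of the 11 pan-leukocyte genes 3 were higher and none lower in the mixed spots.

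By cell type, the B cell list gave 1.75 (1.47 to 2.02) on 127 UMIs, with 4.43 in the blood-dominated and 1.07 in the mixed spots. Of its genes, Igkc, the kappa light chain, had 52 against 298 (1.80, 1.34 to 2.22) and Ighm, the heavy chain of IgM, 21 against 144 (1.54, 0.80 to 2.20). Igkc was high in some remaining spots too, up to 42.7 per 10000 against 29.8 in the members, and outside the block of 53 spots its ratio was -0.25 and that of the list 0.15. The neutrophil list stood at 0.65 (0.31 to 0.98), with 3.03 (2.43 to 3.57) in the blood-dominated and 0.16 (-0.26 to 0.55) in the mixed spots, and S100a9, the calprotectin subunit named after its value was seen, had 22 against 58 UMIs (2.92, 2.14 to 3.65). Its most abundant gene, Lcn2, lipocalin 2, stood at -0.39 (-1.01 to 0.18), and outside the block the list was at 0.05. The T and NK cell list had 40 UMIs (0.65, 0.15 to 1.12), which is too few to describe its genes. The monocyte list stood at 0.39 (0.23 to 0.54), with 1.82 (1.45 to 2.17) in the blood-dominated and 0.20 (0.03 to 0.37) in the mixed spots, and at 0.02 outside the block. Thbs1, thrombospondin 1, which is also on the matricellular list, gave 141 of the monocyte list's 375 UMIs in the members. No value of the list without Thbs1 is given here. The macrophage list, cells that reside in the tissue, differed in direction between the sets, with -0.90 (-1.71 to -0.20) in the blood-dominated spots and 0.28 (0.15 to 0.41) in the mixed spots. The value in the blood-dominated spots was near the median of all genes there, -0.91. Of 15 macrophage genes 8 were lower and 2 higher in those spots, against 56.8% and 17.9% of all genes. C1qa, a complement subunit made by macrophages and the list's most abundant gene, stood at 0.10 (-0.16 to 0.36).

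Transcripts of plasma proteins differed by list and had few UMIs. Of 28 plasma genes tested, 6 were higher and 1 lower, against 6.19% and 8.17% of all genes. The liver plasma protein list had 139 UMIs in the members and 1482 elsewhere (0.90, 0.64 to 1.15), with 2.25 (1.59 to 2.84) in the blood-dominated spots on 23 UMIs, and 12 of its 31 genes had no UMI in the members. Its most abundant gene, Trf, transferrin, stood at 0.63 (0.17 to 1.07) over all members but at -0.94 in the blood-dominated spots, on 1 UMI. Ahsg, fetuin A, had 15 UMIs against 88 (1.76, 0.87 to 2.56), all 15 in mixed spots. Alb, albumin, chosen after its value was seen, had 7 UMIs in the members, all 7 in 1 blood-dominated spot, and 4 in the remaining spots, so that its ratio rests on a single spot. Itih4, chosen likewise, had 18 UMIs in 5 members. The coagulation and fibrinolysis list stood at 0.27 (0.18 to 0.36), with -0.47 (-0.92 to -0.05) in the blood-dominated spots, and 2 of its 13 tested genes were higher: Vwf, von Willebrand factor, and Thbd, thrombomodulin, both made by endothelium. Gas6, its most abundant gene, stood at -0.02. Of 11 complement genes 2 were higher, Cfp, properdin, at 1.67 (0.84 to 2.42) and Cd55, a complement inhibitor on cell surfaces, at 0.77 (-0.40 to 1.75), and 1 was lower, C5ar1, the receptor of C5a, at -1.29 on 4 UMIs. The summed complement list was at 0.16 (0.05 to 0.27).

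Of 22 iron and heme handling genes, 5 were higher, led by Blvrb and Ncoa4, and 3 lower, led by Flvcr2, a heme and choline transporter with 1 UMI in the members, against 6.19% and 8.17% of all genes. Fth1, ferritin heavy chain, gave 80.0% of the list's UMIs and stood at -0.08 (-0.13 to -0.02), with 0.84 in the blood-dominated and -0.17 in the mixed spots. Tfrc, the transferrin receptor through which erythroblasts take up iron, stood at -0.07 (-0.45 to 0.28).

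Among genes of the vessel and chamber wall, the endocardial list stood apart from the others. Of 12 endocardial genes 8 were higher and none lower, against 6.19% and 8.17% of all genes, with a summed ratio of 0.87 (0.76 to 0.98). It was carried by the mixed spots, at 0.90 (0.78 to 1.01), and stood at 0.35 (-0.20 to 0.85) in the blood-dominated spots on 32 UMIs. Smoc1, a matricellular protein, reached 1.90 (1.47 to 2.32), Plvap, which forms the diaphragms of endothelial pores, 1.20 (0.83 to 1.55), Vwf, the list's most abundant gene, 1.16 (0.89 to 1.41) and Npr3, the natriuretic peptide clearance receptor of endocardium, 1.11 (0.75 to 1.46). In the control, 5 of 9 endocardial genes were higher under the same rule, against 3.32% of all genes there higher and 4.29% lower, and the list stood at 0.63 (0.49 to 0.77). In the transgenic section the list stood at 0.91 among the 39 members outside the block of 53 spots, at 0.83 among interior spots alone and at 0.77 among edge spots alone, where edge spots take in the outer rim as well as the opening. The venous list stood at 0.58 (0.42 to 0.73), with 4 of 9 genes higher, and at 0.63 (0.47 to 0.78) in the mixed and -0.47 (-1.42 to 0.34) in the blood-dominated spots on 12 UMIs. Vwf was the most abundant gene of both the venous and the endocardial list. Without it the venous list stood at 0.33 (0.14 to 0.52) and the endocardial list at 0.81 (0.68 to 0.93). The capillary and pan-endothelial list stood at -0.03 (-0.08 to 0.02), with -1.02 (-1.32 to -0.75) in the blood-dominated spots, and Cd36, its most abundant gene, at -0.16. The median of all genes in the blood-dominated spots was -0.91. The smooth muscle list stood at -0.21 (-0.25 to -0.17), with -1.59 in the blood-dominated spots, and without Des, desmin, which cardiomyocytes also make and which gave 90.9% of its UMIs, at 0.13. Tagln, transgelin of smooth muscle, had 73 UMIs against 772 (0.91, 0.55 to 1.26), all in mixed spots.

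**Figure D5:**
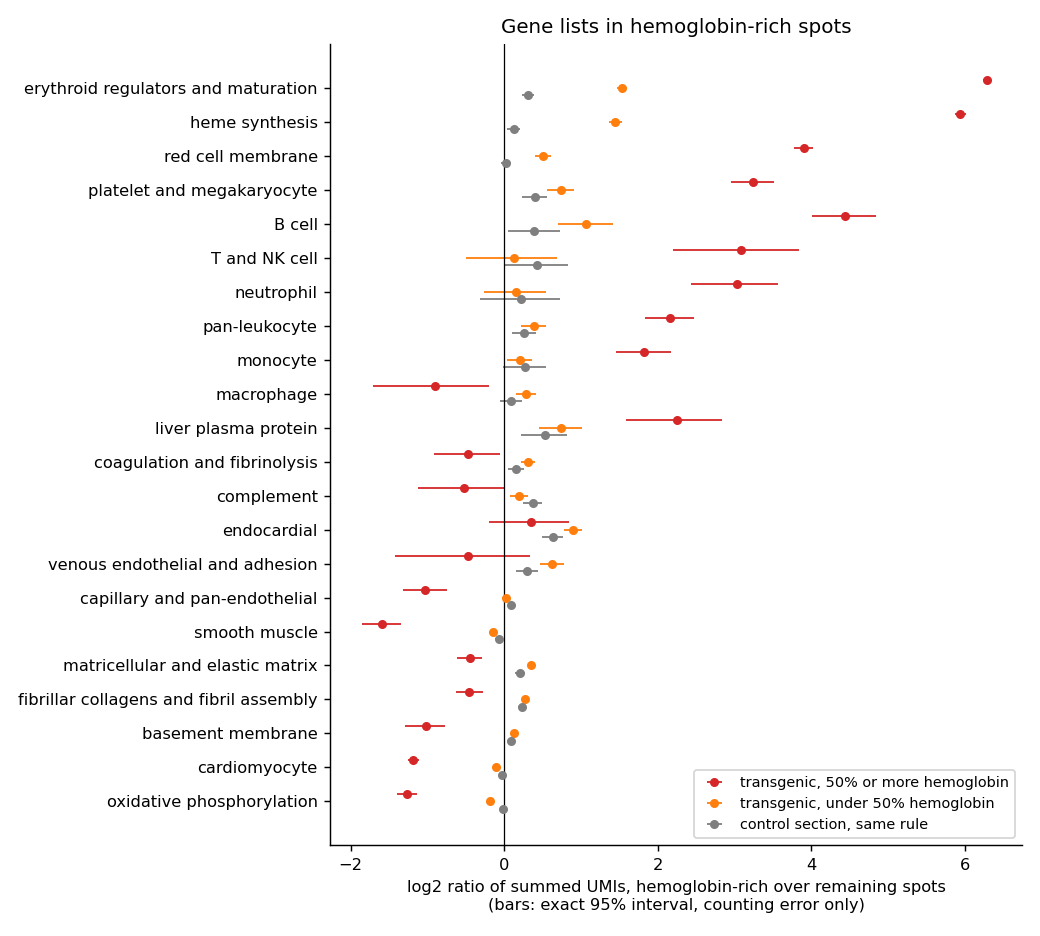
Log2 ratio of each list's summed UMIs, per non-hemoglobin UMI, in hemoglobin-rich over remaining spots (x axis), for the 39 transgenic spots with 50% or more hemoglobin, the 53 under 50% and the 125 control spots. Bars are exact 95% intervals of counting error. Red cell and platelet lists and the leukocyte lists other than macrophages lie to the right in the blood-dominated spots, and macrophage, matrix, muscle and capillary lists to the left. The median over all single genes, not drawn, was -0.91 in the blood-dominated spots.

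Over all members the summed matrix lists differed little from the remaining spots, and the sums had opposite signs in the 2 sets of members. Of 81 matrix and fibroblast genes tested, 4 were higher and 3 lower, against 6.19% and 8.17% of all genes, and the summed lists gave 0.18 (0.17 to 0.20). In the blood-dominated spots they stood at -0.67 (-0.78 to -0.57), with 5 of 81 genes higher and 54 lower. There 17.9% of all genes were higher and 56.8% lower. The median over single genes in the blood-dominated spots was -0.91 for all genes and -0.86 for the matrix genes, so the matrix genes were near the general shift. The mixed spots stood at 0.23 (0.21 to 0.25). None of 21 genes of fibrillar collagens and fibril assembly was past 1.5-fold, and the list stood at 0.23 (0.20 to 0.27), with -0.45 (-0.63 to -0.28) in the blood-dominated and 0.27 (0.23 to 0.31) in the mixed spots. Col3a1, its most abundant gene, had 1183 UMIs against 21572 (0.13, 0.04 to 0.21). None of 18 basement membrane genes was past 1.5-fold over all members (0.08, 0.03 to 0.13, with -1.02 in the blood-dominated spots), and Sparc, its most abundant gene, a collagen-binding protein, stood at 0.17 (0.08 to 0.25). Of 27 matricellular and elastic genes 3 were higher. Thbs1, thrombospondin 1, which platelets store as protein, stood at 0.87 (0.61 to 1.12), with 3.0 in the blood-dominated spots on 40 UMIs. Comp, cartilage oligomeric matrix protein, stood at 0.67 (0.48 to 0.86) and Fn1, fibronectin, at 0.60 (0.40 to 0.79), with 0.22 and -0.01 in the blood-dominated spots. Timp1, an inhibitor of matrix proteases, was lower at -0.90 (-1.66 to -0.23). Clec3b, tetranectin of resting fibroblasts, stood at 0.61 (0.14 to 1.05), all in mixed spots.

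Heart muscle genes were lower in the blood-dominated spots and nearly level in the mixed ones. The cardiomyocyte list stood at -0.15 (-0.16 to -0.14), with -1.18 (-1.26 to -1.11) and -0.10 (-0.11 to -0.09) in the 2 sets, and none of its 19 genes was past 1.5-fold over all members, against 6.19% of all genes higher and 8.17% lower. Fewer cardiomyocytes and less RNA per cardiomyocyte cannot be told apart in spots. Myh6 and Myh7, the alpha and beta myosin heavy chains, stood at -0.16 (-0.21 to -0.11) and 0.05 (0.01 to 0.09), and Nppa, atrial natriuretic peptide, at 0.24 (0.22 to 0.26). The ratio of Nppa turned to -0.11 in the blood-dominated spots, to -0.17 among members outside the largest group and to -0.12 with all UMIs as the denominator. Nppa stood at 24208 CPM in the members, 24589 CPM in the spots touching them and 13704 CPM at 6 or more steps. The oxidative phosphorylation list stood at -0.24 (-0.26 to -0.22), with none of 23 genes past 1.5-fold over all members, and at -1.26 (-1.40 to -1.14) in the blood-dominated spots. The blood-dominated spots still held 1464 UMIs of the cardiomyocyte list, 37149 CPM against 84310 CPM in the remaining spots, so they were not free of muscle RNA. The median over single genes was -0.91 in the blood-dominated spots, where 3299 of 9289 genes had no UMI.

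The control section shared part of this pattern. Of 8700 genes compared in both sections, 477 (5.48%) were higher in the transgenic and 271 (3.11%) in the control hemoglobin-rich spots, and 51 were higher in both, which is 10.7% of the first and 18.8% of the second. Alas2 stood at 2.61 and Tent5c at 2.54 in the control. By contrast Epb41 stood at 0.19, Ube2o at 0.03 and Isg20 at -0.04 there, compared with 2.41, 2.04 and 2.91 in the mixed transgenic spots. The control hemoglobin-rich spots held 0.979% hemoglobin, against 8.13% in the mixed transgenic spots, so these sets differed in hemoglobin share, and the differences between the sections were not tested. The 7 control spots at or above the lowest transgenic member held 18.6% hemoglobin. Against all other control spots, the erythroid regulator list stood at 2.85 (2.58 to 3.10) and heme synthesis at 2.13 (1.78 to 2.47) in them, on 126 and 71 UMIs, whereas the red cell membrane list stood at -0.75 (-1.56 to -0.05) on 16 UMIs.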

How the data were processed

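Visium CytAssist counts of 1 control and 1 TOP2B transgenic heart section were used, 1 mouse each. The deposited values are unnormalized UMI counts of each gene in each spot, which the authors made with Space Ranger 2.0.0 according to the file header, and the submitters' notes name bcl2fastq and GRCm39. The probe set was not given in the sources used here. Moran's I per gene, a score that the authors deposited from Space Ranger, was carried along but entered no comparison, and its deposited p values, the section images and cluster labels were not used here. The panel had 19465 genes, 7 of them globin genes. Of 924 transgenic spots over tissue, 921 had at least 1000 UMIs, and of 1256 control spots 1249 had.

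UMIs were summed over spots and divided by the summed UMIs of all non-hemoglobin genes. Genes with at least 100 UMIs over the compared spots were called higher or lower at 1.5-fold, without a p value. Intervals are exact 95% intervals and cover counting error only, since PCR and spot capture are not independent of tissue. On simulated counts for the 9399 genes of the transgenic comparison, with 200 genes changed, the interval held the true ratio for 96.4% of 9294 genes. These counts were drawn as independent Poisson sums, which is what the interval assumes. The simulation therefore checks the computation and says nothing on UMIs that cluster in single spots.

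The members, gene lists and tests were chosen with earlier results of these data known. Named are every globin gene, Alas2 and Slc4a1, the 15 highest and 10 lowest genes with at least 200 UMIs, the highest, lowest and most abundant tested gene of each of 36 lists, and Nppa, Myh6 and Myh7. Other genes were named after their values were seen, and some genes that the rule picks are not reported here. The alternatives were other denominators and scalings (edgeR 4.0.16 TMM and DESeq2 1.42.0 factors in R 4.3.3), other shares of spots, depth and gene filters, edge and interior spots, strata by depth and cardiomyocyte share, each quadrant left out in turn and, chosen after seeing the data, the split at 50% hemoglobin, the members outside the largest group, edge spots alone, the interferon list without Rsad2 and a denominator without red cell genes. Promoter sequences came from RefSeq (GRCm38.p6). Sums and intervals were computed in Python 3.11.15 with scipy 1.17.1, numpy 2.4.6 and pandas 2.3.3.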

Additional observations from a re-analysis of the deposited data

Results flagged for a closer look

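For 2 of the named genes the interval of the ratio lay on opposite sides of 0 in the 2 sections, and the difference between the sections was not tested. Nppa, which encodes atrial natriuretic peptide, had a log2 ratio of hemoglobin-rich over remaining spots of 0.24 (0.22 to 0.26, 14702 against 247593 UMIs) in the transgenic and -0.48 (-0.68 to -0.28, 225 against 3708 UMIs) in the control section, a difference of 0.72. Its transgenic ratio was -0.17 among the members outside the largest group, -0.11 in the blood-dominated spots and -0.12 with all UMIs as the denominator, so that its direction depends on the 1 block of 53 spots and on the denominator. By distance, Nppa stood at 24208 CPM in the members and 24589 in the spots touching them. It stood at 25965 CPM at 2 steps, 23326 at 3 to 5 steps and 13704 at 6 or more steps. The members were thus not above the spots next to them. Cox6a2, a subunit of cytochrome c oxidase in striated muscle, had -0.23 (-0.29 to -0.18) in the transgenic and 0.06 (0.04 to 0.09) in the control section, a difference of -0.30. Its transgenic ratio ran from -1.19 in the blood-dominated spots to -0.02 with the fifth of spots as members, with the same sign in all 23 settings. The hemoglobin-rich spots held 22.7% hemoglobin in the transgenic and 0.979% in the control section. The intervals cover counting error only.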

How the results depend on the processing

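Alas2, Slc4a1, Tent5c and the 3 red cell lists kept their direction under every alternative run, Alas2 between 3.29 and 8.59, Slc4a1 between 2.76 and 8.45 and Tent5c between 3.19 and 8.67. Of the log2 ratios recomputed, 2398 stayed within the counting interval of the reported value, 932 moved outside it and 12 changed sign after a 1.5-fold call, and 140 counts stayed within 1.5 times and 58 did not. The reported counts were 582 genes higher, 768 lower, and 20 red cell, 2 platelet, 10 leukocyte, 6 plasma, 8 endocardial and 4 matrix genes higher. With all UMIs as the denominator they were 138 higher and 2589 lower, with 3 leukocyte, 3 plasma and 0 matrix genes, and the median of all genes moved to -0.39. With each spot weighing the same they were 1027 and 3244, with 19 leukocyte genes and 1 matrix gene, and the median was -0.35. TMM and DESeq2 factors left 1 matrix gene each. The share of higher among called genes was 43.1% as reported, 5.06% with all UMIs, 24.0% with equal spot weight, 28.3% with TMM and 28.2% with DESeq2 factors. The twentieth of spots gave 1458 and 3815, with 21 leukocyte and 9 matrix genes, with 27.7% of calls higher and a median of -0.34. The fifth gave 158 and 183, with 1 leukocyte and 2 matrix genes. Spots with at least 5000 UMIs gave 433 lower and 2 matrix genes, interior spots 3 plasma genes, strata by cardiomyocyte share 1 matrix gene, and strata by total UMIs 55.1% higher among calls. Leaving out the bottom left or the bottom right quadrant gave 2 plasma genes each, and leaving out the top right gave 0 platelet, 3 plasma and 2 matrix genes. A minimum of 20 UMIs per gene gave 1458 and 1651, with 14 platelet, 31 leukocyte and 15 plasma genes, and 500 UMIs gave 121 and 98, with 12 red cell, 1 platelet, 4 leukocyte, 3 plasma and 5 endocardial genes, from fewer genes tested and with 55.3% of calls higher. The blood-dominated spots alone gave 1664 and 5277, with 20 leukocyte and 5 endocardial genes, 24.0% of calls higher and a median of -0.91. Members outside the largest group gave 0 platelet, 6 leukocyte and 2 matrix genes, and edge spots alone 343 higher, with 1 platelet, 6 leukocyte, 3 plasma and 10 matrix genes. The genes that changed sign were Cd28 (reported at -0.72 on 6 UMIs in the members), at 0.20 with equal spot weight, 0.62 in the twentieth and 1.65 in the blood-dominated spots, Clec3b at -0.20 with equal weight and -1.03 in the twentieth, Emcn at -0.29, Tagln at -1.46 and Cd68 at -0.98 in the twentieth, Scara5 at 0.58 in the fifth and 0.28 at 5000 UMIs, Trf at -0.94 in the blood-dominated spots, and Igkc at -0.25 outside the largest group. In the control section, where 299 genes were higher and 386 lower, TMM gave 161 higher and DESeq2 163 (22.8% and 23.1% of calls, against 43.6%), 20 UMIs gave 1124 and 1234, and 500 UMIs gave 17 and 11 (60.7%). A ratio with 0 UMIs in the members has no value, which left out 33 results in the blood-dominated spots, 20 in the twentieth and 3 elsewhere. The cause of these shifts was not tested. No paired analysis was possible because there is 1 section per genotype. Depth limited the blood lists, since 4 of 23 platelet, 2 of 19 neutrophil, 2 of 14 B cell and 4 of 31 liver genes reached 100 UMIs.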

Other observations

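Summed lists of 12 other cell types and states lay within 0.27 of 0 over all 92 hemoglobin-rich spots, and the interferon response stood at 0.53 (0.39 to 0.66) with Rsad2 and at 0.06 (-0.10 to 0.22) without it. The summed log2 ratio was 0.21 (0.07 to 0.35) for arterial endothelium, 0.27 (-0.22 to 0.72) for mesothelium, 0.23 (0.21 to 0.26) for atrial genes, of which Nppa gave 95.9% of the UMIs, and 0.00 (-0.01 to 0.02) for fetal and stress genes of cardiomyocytes. It was 0.01 (-0.07 to 0.08) for hypoxia targets, -0.07 (-0.16 to 0.02) for immediate early genes, -0.05 (-0.23 to 0.12) for chemokines and acute phase genes, -0.03 (-0.08 to 0.02) for resting fibroblasts, -0.04 (-0.16 to 0.08) for pericytes, -0.02 (-0.35 to 0.30) for conduction cells, -0.15 (-0.37 to 0.07) for lymphatic endothelium and -0.22 (-0.51 to 0.05) for adipocytes. In the blood-dominated spots all 12 were below 0, among them resting fibroblasts at -1.24, hypoxia targets at -1.08, pericytes at -1.06, arterial endothelium at -1.01, fetal and stress genes at -0.67 and atrial genes at -0.13, with conduction cells at -2.47 on 1 UMI and adipocytes at -1.49 on 3. The atrial list also stood at -0.16 among the members outside the largest group. Among fetal and stress genes Acta1, the skeletal alpha-actin, was lower at -0.83 (-0.96 to -0.71, 538 against 19042 UMIs). It stood at -0.87 in the blood-dominated spots, where the median over all genes was -0.91. In the mixed spots it stood at -0.83, where that median was 0.003. Its ratio in the control was -0.18.

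Below the count used for the naming rule, and chosen after its value was seen, E2f2, a cell cycle transcription factor known in erythroid maturation, had 73 UMIs in the members, 55 of them in blood-dominated spots, and 46 in the remaining spots (log2 ratio 4.98).

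The red cell pattern differed in size across the section. The summed ratio of the 3 red cell lists was 3.64 in the top right quadrant, 1.72 in the bottom right, 1.11 in the bottom left and 0.80 in the top left, where 5 members lay. The members of the quadrants also differed in the hemoglobin share that chose them. It was 2.88% to 5.37% in the top left members, whereas the largest group, mainly in the top right, had a median of 76.1%. Position and hemoglobin share were not separated here.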
